A study of Mus musculus with 8 samples.

Results

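Transcripts of Tex101 and other surface proteins of the Ly6/uPAR family were compared between infarcted and sham-operated mouse hearts. Tex101 was chosen by its difference between infarcted and sham hearts, so its values are a description without a test. The other 9 genes were taken from its protein family, and all probes were found by gene symbol. Of the 10 genes, 9 had a probe annotated with that symbol alone, giving 12 of the 33600 probes on the array. No probe carried Ly6a as its only symbol, and Ly6a was not analysed here. A further probe annotated with Slurp1 together with another symbol was left out.

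The hearts came from C57Bl/6 mice aged 8 to 10 weeks. In the infarcted group (n = 4) a branch of the left coronary artery was permanently ligated, and in the sham control group (n = 4) the suture was passed but not tied. RNA of each whole heart, labelled with Alexa Fluor 647, was applied to a separate array printed with 70-mer oligonucleotides, together with a reference pool of adult mouse tissues labelled with Alexa Fluor 555, and the dyes were not swapped. The pool held RNA of ovary and testis as well as heart, and no genetic alteration was described for either group. The labels do not state how long after ligation the hearts were taken. In whole tissue, fewer cells of a type and less RNA per cell cannot be told apart.

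Ly6/uPAR proteins share a small fold of finger-like loops held by disulphide bonds. Many are tethered to the cell surface by a glycosylphosphatidylinositol (GPI) anchor, and others are secreted. Plaur, the urokinase receptor, localises plasminogen activation on migrating cells, Cd59a blocks assembly of the membrane attack complex of complement, and Ly6 antigens mark blood and endothelial cells. Tex101 is a GPI-anchored glycoprotein of germ cells that is needed for sperm fertility proteins to mature.

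The promoters of Tex101 and Lypd3 are shown because these neighbouring genes had the largest differences among the members. Promoter entries existed for 5 members in the RefSeq table of build GRCm38.p6. The Tex101 window lies at chr7:24672001-24672300 on the minus strand and the Lypd3 window at chr7:24636320-24636619 on the plus strand, each from 250 bases before to 50 bases after the start of the gene, read 5′ to 3′. Capitals mark the letters CCAAT or GGGCGG on either strand.
Tex101: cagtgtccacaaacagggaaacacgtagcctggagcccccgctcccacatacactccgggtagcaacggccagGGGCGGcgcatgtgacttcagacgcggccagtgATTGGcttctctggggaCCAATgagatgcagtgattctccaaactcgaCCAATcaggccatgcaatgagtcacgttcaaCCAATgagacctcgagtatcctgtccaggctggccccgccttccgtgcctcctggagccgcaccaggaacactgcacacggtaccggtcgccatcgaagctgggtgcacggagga
Lypd3: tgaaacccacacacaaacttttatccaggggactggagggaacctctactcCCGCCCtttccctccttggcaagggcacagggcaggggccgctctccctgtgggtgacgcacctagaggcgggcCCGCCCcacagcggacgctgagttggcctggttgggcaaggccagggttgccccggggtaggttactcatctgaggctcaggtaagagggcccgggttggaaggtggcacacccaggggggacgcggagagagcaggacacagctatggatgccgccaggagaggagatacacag
The Tex101 window held 4 matches to CCAAT, at -144, -127, -96 and -65 from the start, and 1 match to GGGCGG. The Lypd3 window held 2 matches to GGGCGG and 0 to CCAAT. Across 32851 mouse promoter windows of this length, 37.4% held CCAAT and 35.7% held GGGCGG. Neither window held TATAAA or the STAT-type letters TTCNNNGAA, which 13.6% and 8.3% of windows held. Both strands were searched for these 4 motifs, and the matches shown do not overlap.

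All levels below are the deposited log2 signals of a spot relative to the median spot of its block, so 0 is that median. The deposited values behaved as the signal of 1 channel, since 384 of 384 combinations of block and array gave whole-number signals (tolerance 0.001) between 42 and 65466. The labels do not say which dye that channel is. Markers of several organs stood above the block median in the sham arrays. The median level was 2.97 for liver markers, 2.36 for kidney and stomach markers and 1.72 for germ cell markers, while heart muscle markers had 5.58 and brain markers -0.40. Stromal markers had 2.20 and endothelial markers 1.38, so a level above the block median does not mark organs of the reference pool. Between 19704 and 24819 spots had a value on a sham array, and between 21916 and 23655 on an infarcted array. Two-sided tests were limma's, with Benjamini-Hochberg adjustment over 20561 probes with at least 3 values per group. Of these probes 157 passed an adjusted p of 0.05, or 0.764%, with 13 higher (0.0632%, Tex101 counted in) and 144 lower (0.7%) in the infarcted hearts. An unadjusted p under 0.05 was reached by 12.5% of the probes tested. Leaving out 1 array gave between 3 and 741 probes, the lowest without infarcted array 3 and the highest without sham array 4. Heart-to-heart and array-to-array variation enter the p-values jointly, and the number of arrays limits the precision.

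Tex101 had the largest increase of all probes tested, as the gene had been chosen for its difference. The level of the Tex101 probe (26180) was 0.20, -0.59, 0.37 and -0.41 on the sham arrays. On the infarcted arrays it was 4.83, 4.67, 4.83 and 4.64. Every infarcted heart stood far above every sham heart, and the infarcted values lay close together. The mean was -0.11 ± 0.47 (SD, n = 4) in sham hearts and 4.74 ± 0.10 (SD, n = 4) in infarcted hearts, a difference of 4.85 ± 0.26 (SE), or 28.8-fold. As recovered signals the probe read 773, 280, 705 and 450 on the sham arrays, and 11759, 13274, 20892 and 9579 on the infarcted arrays. No other probe carried Tex101 as its only symbol.

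Lypd3, a GPI-anchored protein of squamous epithelium that binds laminin, lies beside Tex101 on chromosome 7 and is the next protein-coding gene there. Its probe (20580) had values on only 2 sham arrays, the first and the fourth, at -1.31 and -1.94. On the infarcted arrays it read 1.89, 1.57, 1.42 and 1.51. All infarcted values were above both sham values. The mean difference was 3.22 in log2 signal, but the probe had too few sham values for the test at 3 values per group. With at least 2 values per group, an alternative fixed with the design, the difference was 3.22 ± 0.31 (SE), or 9.34-fold, with a limma adjusted p of 0.00915 over 22845 probes. That value rests on sham arrays 1 and 4 alone, at 1 of the 12 array positions described next. It is therefore given as a description. Over those 12 positions, sham arrays 1 and 4 had the lowest same-spot correlations with the infarcted arrays (0.13 to 0.19 and 0.26 to 0.29). At the position of Lypd3 itself, the correlations with the infarcted mean were 0.28, 0.39, 0.04 and 0.23 for sham arrays 1 to 4. In that fit 161 probes passed (0.705%), of which 18 were higher (0.0788%) and 143 lower (0.626%).

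**Figure D1:**
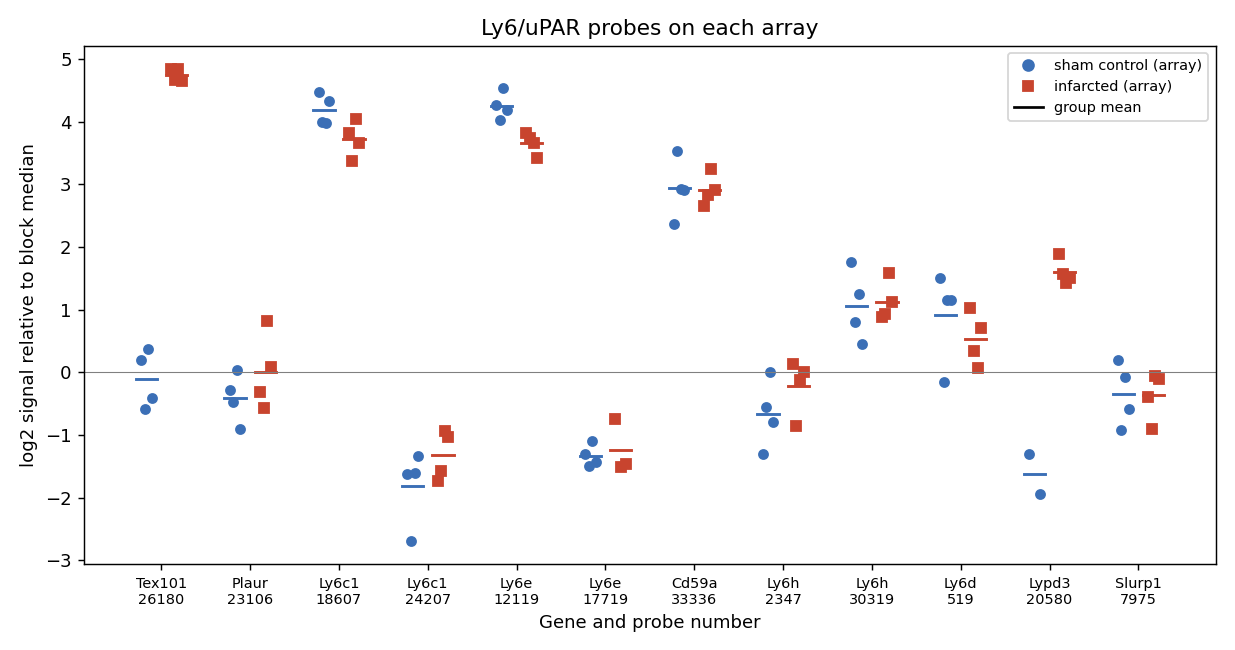
Log2 signal relative to the block median (vertical axis) of each of the 12 member probes (horizontal axis) on each array, with points for single arrays and bars for group means. Tex101 reads 4.64 to 4.83 on the infarcted arrays and at most 0.37 on the sham arrays, and Lypd3 is also higher on the infarcted arrays, while most other probes overlap between the groups.

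The Tex101 and Lypd3 spots shared a place on the array at which group differences were unusually large for many genes. Each of the 48 blocks holds 700 spots, and both probes are spot 280 of their block, in blocks 38 and 30. Spots whose position was a multiple of 28 up to 336 form 12 such positions, described here as the last place of the first 12 rows of 28 spots. The row length and the 12 positions were read from these same values, not from the labels. The figures for these positions are therefore descriptions. Tex101 and Lypd3 were the only member probes at them. The SD over blocks of the difference between groups was 1.11 to 1.71 at the 12 positions, against a median of 0.47 at the other positions. All 12 were among the 20 largest SDs of 686 positions, and position 280 ranked 2, with Tex101 and Lypd3 counted in.

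These positions held 1.57% of the spots compared (359 of 22845 with at least 2 values per group). They held 20 of the 31 differences above 2 in log2, Tex101 and Lypd3 counted in, and 23 of the 109 below -2. At position 280 itself 4 genes had a difference above 2. Besides Tex101 and Lypd3 these were Tead3, a transcription factor of the Hippo pathway, at 3.93, and Ppard, a nuclear receptor for fatty acids, at 2.39. Apart from Tex101, 12 probes passed as higher in infarcted hearts, and 1 of them, an unnamed probe, lay at the 12 positions. Of the 144 lower probes, 9 did. At these positions 247 probes were tested.

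**Figure D2:**
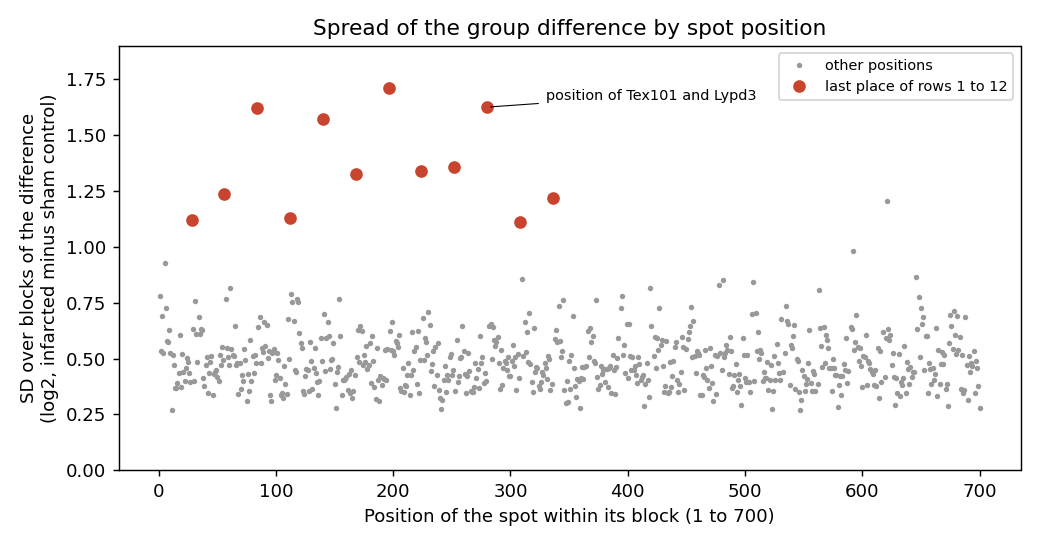
SD over blocks of the difference in log2 signal, infarcted minus sham control (vertical axis), against the position of the spot within its block (horizontal axis), with 1 point per position. The last places of rows 1 to 12 stand at 1.11 to 1.71, and the position of Tex101 and Lypd3 ranks 2 of 686.

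At position 280 the infarcted levels followed the sham levels of another spot more closely than those of the same spot, though not in every block. Over the blocks, the infarcted mean correlated with the sham mean at the same spot with r = 0.27 (n = 38 spots), and with the sham mean of the spot 28 positions further on with r = 0.81 (n = 38). For the single sham arrays the values were 0.28, 0.39, 0.04 and 0.23 at the same spot, and 0.85, 0.72, 0.68 and 0.80 at the spot 28 further on. At position 279, the neighbouring place, r was 0.98 at the same spot (n = 39) and 0.26 at 28 further on (n = 36). The spots share arrays and block scaling, and these correlations are descriptions.

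Over all 12 positions the sham arrays differed from each other. Same-spot correlations with the 4 infarcted arrays were 0.13 to 0.19 for sham array 1 and 0.26 to 0.29 for sham array 4. For sham array 2 they were 0.53 to 0.69, and for sham array 3 they were 0.74 to 0.81. Correlations with the sham spot 28 further on left out the last of the 12 rows, here and at place 27. They ran the other way, from 0.67 to 0.75 for sham array 1 and 0.70 to 0.77 for sham array 4. For sham array 2 they were 0.35 to 0.51, and for sham array 3 they were 0.18 to 0.24. At place 27 of the same rows, same-spot correlations were 0.89 to 0.96 and those 28 further on were 0.01 to 0.16. At place 28 of rows 13 to 25 the same-spot correlations were 0.88 to 0.95. Whether spots were assigned to the same oligonucleotide on every array at these 12 positions was not tested beyond these correlations.

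**Figure D3:**
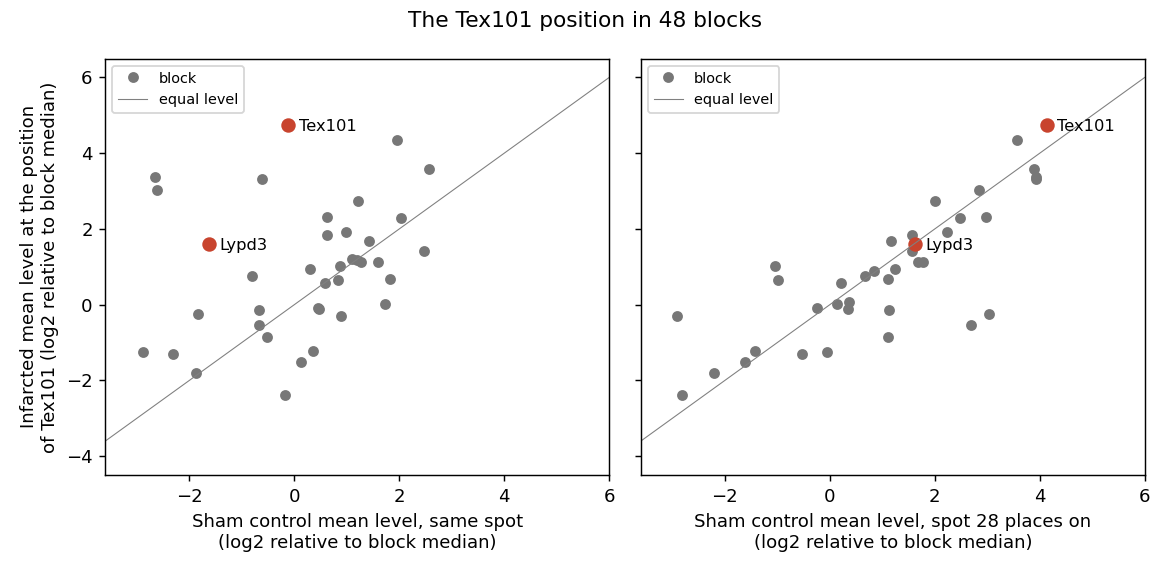
Mean log2 signal of the infarcted arrays at position 280 (vertical axis) against the mean of the sham arrays at the same spot and at the spot 28 positions further on (horizontal axes), with 1 point per block. The points scatter widely for the same spot (r = 0.27). For the spot 28 further on they lie closer to a line (r = 0.81), with some blocks far from it.

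The spot 28 positions after Tex101 carries Idh3g, a subunit of the mitochondrial isocitrate dehydrogenase. Its sham levels were 4.92, 1.68, 5.18 and 4.73, and its infarcted levels 4.81, 0.24, 1.80 and 1.65. Sham arrays 1, 3 and 4 at Idh3g thus read within the range 4.73 to 5.18, beside 4.64 to 4.83 for the infarcted arrays at Tex101. The spot 28 after Lypd3 carries Srpk3, a muscle protein kinase, with sham levels of 1.69, 1.58, 2.04 and 1.17. Those sham values lie beside 1.42 to 1.89 for the infarcted arrays at Lypd3. Neither Idh3g nor Srpk3 had another probe with a single symbol on the array.

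The spots just before Tex101 in print order did not share its difference. Krt23, a keratin, differed by 0.10, Mapkapk2, a stress-activated kinase, by 0.06 and Phykpl, a lyase, by -0.30, with overlapping groups in each. Of the 3 spots after it, an unnamed probe differed by -0.01, and Lgsn and another unnamed probe had no value on any array.

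Among the remaining members, 0 of the 10 probes tested passed by limma, where 0.764% of all probes did, and 1 had an unadjusted p under 0.05, where 12.5% of all probes did. With so small a share over the array, a count of 0 in 10 does not set the family apart from other probes. Of the differences 5 were positive and 5 negative, from -0.59 to 0.50. Their median was 0.02, beside -0.07 over all probes tested. The groups did not overlap at 1 of the 10, where the infarcted values were all lower, against 9.11% of all probes tested (6.33% all lower and 2.79% all higher). A p above the threshold does not show that levels were equal, and the SEs of these differences were 0.21 to 0.38.

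Plaur, the urokinase receptor, lies in the same stretch of chromosome 7 as Tex101. Its probe (23106) read -0.28, -0.48, 0.04 and -0.91 on the sham arrays and -0.31, -0.57, 0.81 and 0.09 on the infarcted arrays. The highest level belonged to an infarcted heart, but the groups overlapped. The difference was 0.41 ± 0.34 (SE, limma adjusted p = 0.679).

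Ly6e, an interferon-induced GPI-anchored protein that restricts coronavirus entry, had 2 probes that read differently. Probe 12119 read 4.27, 4.03, 4.53 and 4.19 on the sham arrays and 3.82, 3.73, 3.66 and 3.42 on the infarcted arrays. Every infarcted value was below every sham value. The difference was -0.59 ± 0.21 (SE), with an unadjusted limma p of 0.0198 and an adjusted p of 0.279. Probes with a mean level between 3 and 5 had a median difference of -0.43, which was 0.06 after quantile normalization. After that normalization the Ly6e difference was -0.08 (limma adjusted p = 0.94). Probe 17719 read -1.30, -1.50, -1.10 and -1.43 on the sham arrays and -0.74, -1.52 and -1.47 on 3 infarcted arrays. These groups overlapped, with a difference of 0.09 ± 0.28 (SE, limma adjusted p = 0.932). Averaged over the probes with a value, the Ly6e difference was 0.33 ± 0.48 (SE, limma adjusted p = 0.838). On the fourth infarcted array that mean is probe 12119 alone, at 3.42, since probe 17719 had no value there. The sign of this average therefore cannot be set against that of probe 12119.

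Ly6c1, a marker of monocytes, endothelium and some lymphocytes, also had 2 probes, with differences of opposite sign. Probe 18607 read 4.47, 3.99, 3.97 and 4.32 on the sham arrays and 3.81, 3.37, 4.04 and 3.66 on the infarcted arrays. Only the third infarcted array reached the sham range. The difference was -0.47 ± 0.24 (SE, limma adjusted p = 0.464) and 0.03 after quantile normalization. Probe 24207 read -1.62, -2.69, -1.61 and -1.34 on the sham arrays and -1.74, -1.57, -0.94 and -1.03 on the infarcted arrays. The groups overlapped, and the difference was 0.50 ± 0.33 (SE, limma adjusted p = 0.604). The probe pairs of Ly6c1 and of Ly6e each occupied the same position 8 blocks apart, as Lypd3 and Tex101 did.

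Cd59a, the inhibitor of the membrane attack complex, read 2.37, 3.53, 2.92 and 2.91 on the sham arrays and 2.65, 2.83, 3.25 and 2.90 on the infarcted arrays (probe 33336). The infarcted values lay inside the sham range. The difference was -0.03 ± 0.28 (SE, limma adjusted p = 0.981), and its sign turned after quantile normalization, at 0.21.

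Ly6h, a brain-enriched member that modulates nicotinic acetylcholine receptors, had 2 probes. Probe 2347 read -1.30, -0.55, 0.00 and -0.80 on the sham arrays and 0.13, -0.86, -0.13 and 0.00 on the infarcted arrays, a difference of 0.45 ± 0.33 (SE, limma adjusted p = 0.636). Probe 30319 read 1.76, 0.80, 1.24 and 0.45 on the sham arrays and 0.88, 0.93, 1.58 and 1.12 on the infarcted arrays, a difference of 0.06 ± 0.31 (SE, limma adjusted p = 0.963). The groups overlapped at both probes.

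Ly6d, a marker of early B lineage cells and squamous epithelium, read 1.50, -0.16, 1.15 and 1.16 on the sham arrays and 1.03, 0.34, 0.06 and 0.71 on the infarcted arrays (probe 519). Sham array 2 was the lowest of all 8, and the groups overlapped. The difference was -0.38 ± 0.38 (SE, limma adjusted p = 0.747). Slurp1, a secreted epithelial member, read 0.20, -0.93, -0.07 and -0.58 on the sham arrays and -0.40, -0.90, -0.06 and -0.11 on the infarcted arrays (probe 7975). The infarcted values lay inside the sham range, with a difference of -0.03 ± 0.31 (SE, limma adjusted p = 0.985).

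A list of 38 further Ly6/uPAR genes had 21 genes with a probe, on 25 probes. Of these, 15 probes of 11 genes were tested, 4 had no value on any array, and none was at the 12 positions. By limma 0 of the 15 passed, beside 0.764% of all probes, and 4 had an unadjusted p under 0.05, beside 12.5% of all probes. Of the differences, 5 were positive and 10 negative. The median difference was -0.24, beside -0.07 over all probes tested, and the differences ran from -1.46 to 0.61. Lower values in the infarcted hearts were largest for Ly6g5b and Psca, neither past the threshold.

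Ly6g5b, of the Ly6 cluster in the major histocompatibility complex, read -0.09, -0.58, 0.64 and 0.75 in sham hearts and -1.61, -1.10, -1.14 and -1.24 in infarcted hearts. Every infarcted value was below every sham value, a difference of -1.46 ± 0.32 (SE, limma adjusted p = 0.0751). Without sham array 2 the difference was -1.71 ± 0.28 (SE, limma adjusted p = 0.0445). That was the only 1 of the 18 alternative settings in which a further family probe passed. Psca, prostate stem cell antigen, read 2.81, 2.37, 3.33 and 3.00 in sham hearts and 1.69, 1.59, 1.23 and 2.42 in infarcted hearts. Only the fourth infarcted heart reached the sham range, and the difference was -1.14 ± 0.31 (SE, limma adjusted p = 0.143).

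Lynx1, a brake on nicotinic receptors, differed by -0.78 ± 0.24 (SE, limma adjusted p = 0.202) at probe 23347, with groups that did not overlap. At probe 28947 it differed by -0.47 ± 0.37 (SE, limma adjusted p = 0.668). Ly6f differed by -0.95 ± 0.30 (SE, limma adjusted p = 0.239), also without overlap, on 3 arrays of each group. The remaining tested genes were Ly6k at -0.59, Spaca4, an acrosomal sperm protein, at -0.24, Ly6g6d at -0.04, Gml2 at 0.09 and Lypd2 at 0.15. Ly6g6c differed by 0.43 and -0.46 at its 2 probes, and Ly6g6e by 0.61, 0.36 and -0.10 at its 3.

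**Figure D4:**
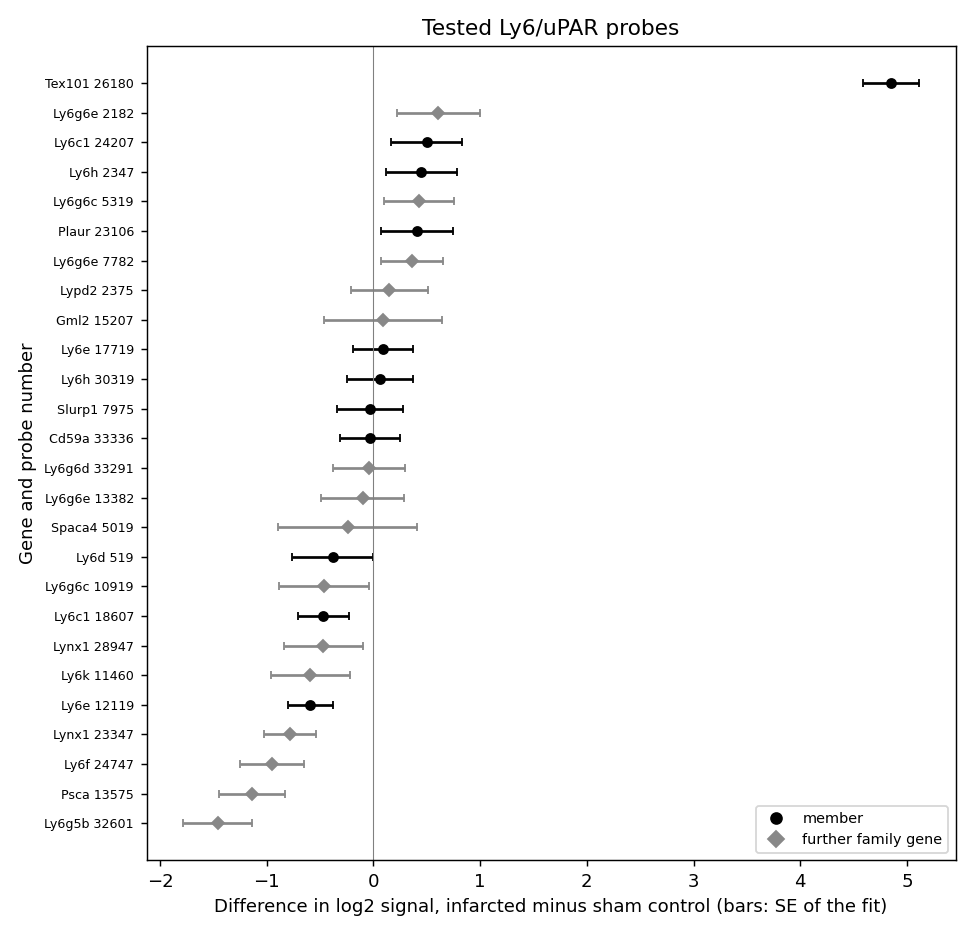
Difference in log2 signal, infarcted minus sham control (horizontal axis), for each tested Ly6/uPAR probe (vertical axis), with bars for the SE of the fit. Tex101 stands at 4.85, and every other tested probe lies between -1.46 and 0.61.

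The stretch of chromosome 7 from Lypd5 to Lypd4 holds 21 protein-coding genes in the RefSeq order, Plaur, Lypd3 and Tex101 among them, and 12 had a probe (17 probes). Of 9 probes tested besides Tex101, 0 passed by limma, beside 0.764% of all probes. An unadjusted p under 0.05 was reached by 1, beside 12.5% of all probes, so the counts do not set this stretch apart. That probe was Ethe1, a mitochondrial sulphur dioxygenase, at -1.72 ± 0.52 (SE, limma adjusted p = 0.188). Ethe1 read 1.82, 1.87, 2.12 and 1.14 on the sham arrays and -0.73, 1.63, 0.14 and -0.98 on the infarcted arrays. Its probe, 1 probe of Xrcc1, a DNA repair scaffold, and those of Lypd3 and Tex101 were the 4 of the 17 at the 12 positions, and all were at position 280.

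Germ cell markers, the cell type in which Tex101 is normally found, had mostly negative differences. Of 34 germ cell marker probes tested, 32 differences were negative and 2 positive, with a median of -0.62 beside -0.07 over all probes tested. Of all probes tested, 43.2% had a positive difference. After quantile normalization the median of the germ cell markers was -0.51. Before that normalization, probes of any gene with a mean level between 1 and 3, where the median level of these markers lay, had a median difference of -0.07. Between 3 and 5 the median difference was -0.43, which quantile normalization took to 0.06. The list was measured on 41 probes of 33 genes. Prm2, a protamine that packs sperm DNA, was the only marker that passed (1 of 34 probes, beside 0.764% of all probes), and it was lower. It read 4.46, 3.72, 4.42 and 4.01 in sham hearts and 2.48, 2.08, 2.89 and 2.40 in infarcted hearts, a difference of -1.69 ± 0.26 (SE, limma adjusted p = 0.0265). Theg, a spermatid protein, differed by -1.48 ± 0.35 (SE, limma adjusted p = 0.0927), and Ldhc, the testis lactate dehydrogenase, by -1.21 and -1.28 at 2 probes. The median level of the markers was 1.72 in sham and 1.11 in infarcted hearts. Over the 34 with values on every array, their mean level per array ran from 0.68 to 2.10 in sham and 0.56 to 0.97 in infarcted hearts.

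The reference pool held testis RNA, and markers of liver and of kidney and stomach also had mostly negative differences. All 13 liver marker probes tested were negative, with a median of -1.11 (-0.86 after quantile normalization). Of 14 kidney and stomach probes 12 were negative, with a median of -0.96 (-0.63 after quantile normalization). By limma 0 passed in either list, beside 0.764% of all probes. Heart was also in the pool, and heart muscle markers were mixed, with 8 positive and 7 negative differences and a median of 0.02. The part of the reference in the Tex101 and germ cell values was not tested.

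Tex101 partners and other sperm fertility proteins were mixed in sign, with 8 positive and 15 negative differences among 23 probes and a median of -0.27. None passed, beside 0.764% of all probes. Ace, whose testis form sheds GPI-anchored proteins from sperm, differed by 1.16 and 0.58 at 2 probes (limma adjusted p = 0.319 and 0.377). Which form of Ace these probes detect was not tested. Adam3, a sperm migration protein, differed by -0.81 (limma adjusted p = 0.349).

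Lists tied to the other members likewise held no probe that passed, beside 0.764% of all probes. With so small a share, a count of 0 does not set these lists apart. Plasminogen activation genes and urokinase receptor partners had 7 positive and 4 negative differences of 11 tested, with a median of 0.11. Vtn, vitronectin, a ligand of the urokinase receptor and an inhibitor of terminal complement, was lower on every infarcted array, at -0.77 ± 0.26 (SE, limma adjusted p = 0.251). Terminal complement genes and their inhibitors had a median of -0.17 over 10 probes, which became 0.09 after quantile normalization. GPI anchor synthesis genes had a median of 0.00 over 19 probes, with 10 positive and 9 negative. Nicotinic receptor genes were mostly without signal, with 2 of 16 probes tested and 9 without a value on any array.

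Markers of the cells that carry Ly6 proteins gave no probe past the threshold either, beside 0.764% of all probes. Over all probes tested, 43.2% of the differences were positive. Macrophage and monocyte markers were positive at 16 of 17 probes, with a median of 0.55, and Gpnmb, a macrophage lysosomal glycoprotein, differed by 1.58 (limma adjusted p = 0.0512). Their mean level per array was 0.31 to 0.58 in sham and 0.91 to 1.52 in infarcted hearts. Neutrophil markers were positive at 7 of 8 probes, with a median of 0.22. Endothelial markers had a median of -0.06 over 24 probes, interferon-induced genes -0.15 over 27, squamous epithelium markers -0.09 over 13 and lymphocyte markers 0.01 over 7. Stromal markers had a median of -0.12 over 15 probes, heart muscle markers 0.02 over 15 and brain markers -0.10 over 22, and the first of these turned to 0.08 and the second reached 0.59 after quantile normalization.

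**Figure D5:**
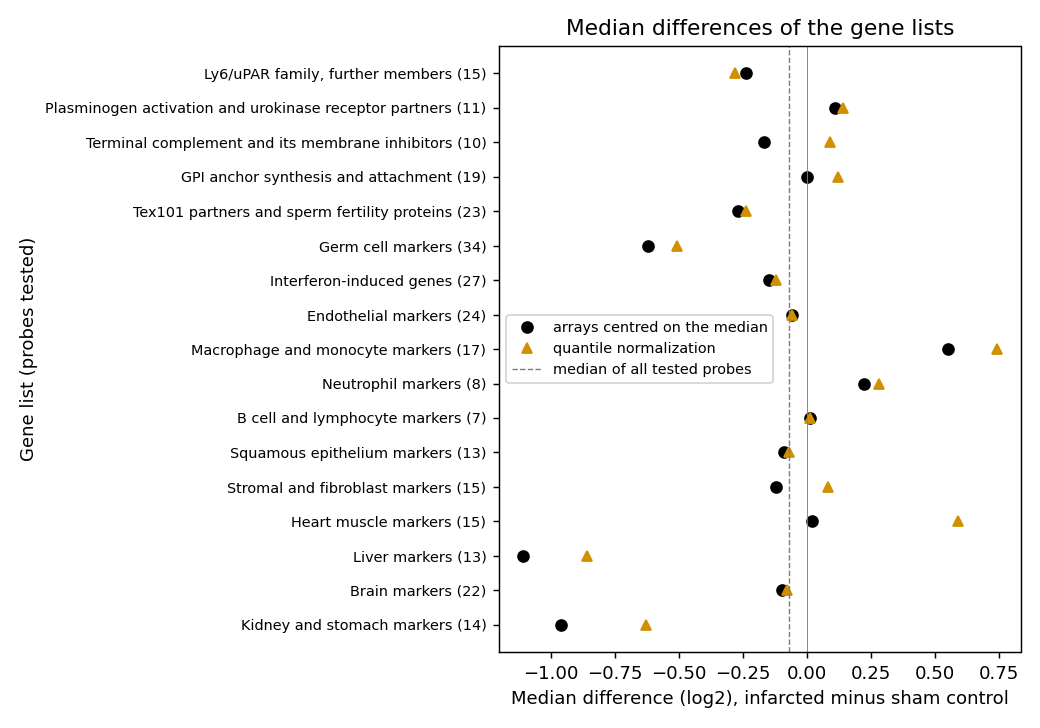
Median difference in log2 signal, infarcted minus sham control (horizontal axis), of the tested probes of each gene list (vertical axis, with the number of probes; nicotinic receptors left out), before and after quantile normalization. Macrophage markers lie at 0.55, and germ cell, liver, and kidney and stomach markers at -0.62, -1.11 and -0.96.

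Of 10626 probes with 1 symbol and a value on all 8 arrays, the 5 whose level was most like that of Tex101 across the arrays were those of Syne1, Sfrp2, Ccl8, Znrd1as and Trip4. Their Pearson correlations with Tex101 over 8 arrays were 0.992, 0.982, 0.968, 0.964 and 0.961. The arrays form 2 groups, so any probe that separates the groups correlates with Tex101. Sfrp2, a secreted Wnt modulator, was 2.48 and Ccl8, a monocyte chemokine, 2.74 higher in infarcted hearts, and Syne1, a nuclear envelope protein, 0.95.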

How the data were processed

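The deposited log2 values of 33600 spots on 8 arrays, per the file's own value table, were the authors' processed values. Their whole-number signals per block show a single channel divided by the block median (largest absolute block median 0.00029), where a ratio had been assumed. The sources used here do not give the dye, background correction or software. Arrays were centred on their median. Probes were named through the platform annotation: 18179 had 1 symbol, 87 several and 15334 none listed. Entrez numbers matched RefSeq (GRCm38.p6) for 18164. Probes with at least 3 values per group were fitted with limma 3.58.1 in R 4.3.3, tested on simulated data, without covariates. All members were named with every probe, every tested further family gene, up to 4 probes of each other list (those called, then the lowest p; the text names some), the 3 spots on either side of Tex101, and the 5 most similar probes. Tead3, Ppard, Idh3g, Srpk3, Ethe1 and Xrcc1 were named after their values were seen. The members and 18 gene lists were chosen with earlier results of these data known. Arrays within a group correlated at 0.873 to 0.958. Alternatives covered normalization, filters, gene means, spot position, replicate block and single arrays; leaving out the 12 positions was added after seeing the data.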

Additional observations from a re-analysis of the deposited data

How the results depend on the processing

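The 157 probes past the threshold numbered 35 after quantile normalization, 91 after scaling each array's spread, 40 with the spot position's effect removed and 99 with gene means, and 3 to 741 when 1 array was left out. Without sham array 4 there were 741, without sham array 1 52 and without sham array 3 40. Without infarcted arrays 1, 2, 3 and 4 there were 12, 13, 3 and 6. Without the 12 positions, an alternative chosen after seeing the data, 142 of 20314 probes passed, 11 higher and 131 lower, and all 142 were among the 157. Of the 157, 146 lay outside the 12 positions. With the replicate number as a block, 1 probe passed. Same-numbered sham and infarcted arrays had residual correlations of 0.035, 0.313, -0.092 and -0.199 over 17178 probes, so the numbers were not taken to pair the arrays.

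The Tex101 difference was 5.24 after quantile normalization, 4.24 with the position effect removed, and 4.69 to 5.01 when 1 array was left out. Removing the position effect subtracts each array's median at a position over the blocks. It cannot show whether the spot was assigned to the same oligonucleotide on every array, and neither can the other alternatives. Among the members 1 probe, Lypd3, passed with at least 2 values per group, against 0 at 3, and 0 to 0 when 1 array was left out. The Lypd3 value rests on 2 sham arrays at 1 of the 12 positions and is a description. In the further family 0 to 1 passed when 1 array was left out.

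Of 173 alternative values of the other 10 member differences, 160 kept their sign, 13 reversed and 0 passed. Ly6c1 (probe 18607) was 0.03 after quantile normalization. Cd59a was 0.21 after quantile normalization, 0.04 after scaling, 0.25 with the position effect removed, and -0.21 to 0.17 when 1 array was left out. By array left out, Ly6e (17719) ran from -0.17 to 0.23, Ly6h (30319) from -0.14 to 0.29 and Slurp1 from -0.22 to 0.16. Averaging probes gave a gene difference of 0.33 for Ly6e, 0.02 for Ly6c1 and 0.26 for Ly6h, in place of values for their single probes (limma adjusted p 0.838, 0.989 and 0.748). The Ly6e average is probe 12119 alone on the fourth infarcted array, so its sign cannot be set against that of either probe.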
